A study of Rattus norvegicus with 2 samples.

Results

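Broad H3K4me3 peaks are described here in C6 cells, an established rat glioma line. Members were all peaks of the authors' list with a width (end minus start) of 4 kb or more on chromosomes 1 to 20. There were 936 of them among the 30172 listed peaks. They made up 3.17% of the 29543 peaks on these chromosomes, with an interval of 2.97 to 3.37%, and 5.99% of the peaks of at least 1 kb. They held 4.96 Mb of the 41.5 Mb that peaks covered there, or 11.96%. The comparison class was the 14688 peaks from 1 kb to under 4 kb on the same chromosomes. Members were chosen by measured width, so widths and everything tied to width are given as a description.

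The list came from 1 chromatin immunoprecipitation (ChIP) library made with an antibody against trimethylated lysine 4 of histone H3 and sequenced on a SOLiD instrument, with 1 input library as its background. The cells grew in 10% fetal bovine serum, were fixed with 1% formaldehyde at 90% confluence and carried no treatment or genetic change named in the labels, and the sheared chromatin averaged 300 bp. The study has a single line and no replicate, so the values describe these libraries and no test between conditions could be made. Intervals are 95% intervals, exact Clopper-Pearson for shares and exact Poisson for densities, and cover counting error only. Positions are on rn4 and count from 1. The list gives no read numbers, so the depth behind a peak is unknown.

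H3K4me3 is laid down by the COMPASS family of methyltransferases, to which SET1 and the MLL proteins belong, and is read by the transcription machinery through proteins with a PHD finger such as TAF3. At most active promoters it sits on a few nucleosomes around the transcription start, largely at CpG islands. Some promoters carry it over a much longer stretch. Such broad domains are known from many cell types, where they often lie at genes that define the cell's identity, and from tumour suppressor genes in normal cells. The broad peaks are named by position, and neither promoters, genes nor cell type markers were analysed here.

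Most broad peaks were only moderately wider than the threshold. A broad peak had a median width of 4850 bp (quartiles 4366 and 5769 bp), and 10% reached 7084 bp or more. There were 515 peaks from 4 to under 5 kb, 226 from 5 to under 6 kb, 148 from 6 to under 8 kb and 47 of 8 kb or more. No break in width marked the threshold. The narrowest members were 4002 bp on chromosome 1 from 3353339 to 3357340, with a score of 926.7, 4002 bp on chromosome 10 from 92091881 to 92095882, with a score of 631.6, and 4004 bp on chromosome 8 from 20173515 to 20177518, with a score of 1546. The widest peaks left out were 3998 bp on chromosome 4 from 144139301 to 144143298, with a score of 3090, 3998 bp on chromosome 10 from 55797824 to 55801821, with a score of 2000, and 3997 bp on chromosome 10 from 4360212 to 4364208, with a score of 1842. These last 3 scored higher than the 3 just inside.

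Broad peaks were also the high-scoring end of the list, as the construction of the score favours. The deposited score, which the file does not define and which was taken as the negative log10 of a peak's p-value multiplied by 10, grows with the reads in a peak and so with its width. Its median was 2228 in broad peaks, with quartiles of 1553 and 3036, and 535.5 in the comparison class, with quartiles of 219.3 and 989.8. A score of 1000 or more was held by 877 broad peaks, or 93.7%, and by 24.6% of the comparison class. Of the 230 peaks that share the score of 3100 on these chromosomes, 196 were broad. That single value was held by 20.9% of broad peaks (interval 18.4 to 23.7%) and 0.231% of the comparison class. Among broad peaks alone the Spearman rho of width and score was 0.50 over 936 peaks, against 0.69 over the 14688 of the comparison class. The shared score of 3100 ties many of the widest peaks and limits what the first of these values can show.

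**Figure D1:**
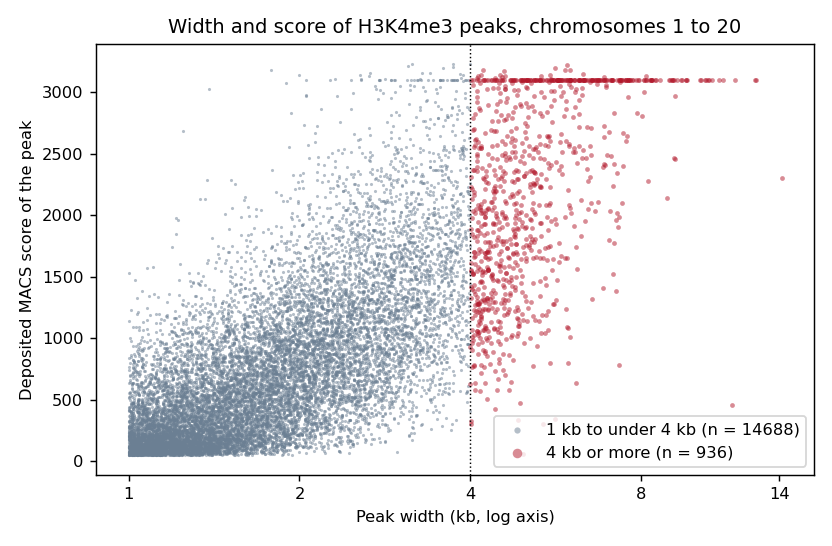
Deposited MACS score against peak width (kb, log axis) for each peak of 1 kb or more on chromosomes 1 to 20, with 936 broad peaks in red and 14688 narrower peaks in grey and the 4 kb threshold as a dotted line. The row of points at 3100 holds 196 broad peaks, and a single broad peak lies below a score of 300.

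A handful of broad peaks had weak scores. Of the 936, 9 scored under 500, and 1 scored below the median of the whole list, 185.6. This was a peak of 4959 bp on chromosome 17 from 17519166 to 17524124 with a score of 63.6. It stood alone, with 51119 bp to the nearest listed peak and 1632 kb to the nearest broad one. The next lowest was a peak of 4013 bp on chromosome 2 from 43116519 to 43120531, with a score of 303.7, and it lay 111 bp from another broad peak. The third, 5372 bp on chromosome 13 from 86957169 to 86962540, scored 304.5 and had its nearest listed peak at 1504 bp. The fourth was 4005 bp on chromosome 4 from 42964118 to 42968122, with a score of 328.7, and the fifth 4847 bp on chromosome 8 from 128259357 to 128264203, with a score of 339.1. These last members lay 1.339 and 2.559 kb from another broad peak. So 3 of the 5 weakest broad peaks were close neighbours of another broad peak.

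The widest broad peak of each chromosome ranged from 7601 bp on chromosome 13 to 14151 bp on chromosome 4, and 17 of these 20 peaks had the score of 3100. The exceptions were the peaks of chromosome 4 (score 2304), chromosome 6 (9143 bp from 57674766 to 57683908, score 2466) and chromosome 15 (7860 bp from 105354655 to 105362514, score 2833). A flanking peak within 2 kb was present at 14 of the 20. At 2 of them no other peak lay within 10 kb. One of these was on chromosome 7, 8634 bp wide from 36890525 to 36899158, with the nearest peak at 18983 bp, and the other was the peak of chromosome 15, with the nearest peak at 18145 bp. The gap to the neighbour was shortest on chromosome 5, where a peak of 9123 bp from 101401261 to 101410383 had another peak 17 bp away, and on chromosome 2, where a peak of 9407 bp from 180606981 to 180616387 had one at 19 bp. Another broad peak lay within 50 kb of 3 of the 20, on chromosomes 5, 12 and 17. The median distance of the 20 to the nearest other broad peak was 367 kb.

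Along the genome, broad peaks followed the density of narrower peaks. Over chromosomes 1 to 20 there were 0.370 broad peaks per Mb of span (interval 0.347 to 0.394), where the span runs from the first to the last listed peak of a chromosome, and 5.80 comparison peaks per Mb. Chromosome 12 was highest with 50 broad peaks, or 1.07 per Mb (interval 0.796 to 1.41), followed by chromosome 10 with 82, or 0.745 per Mb (0.592 to 0.924), and chromosome 7 with 79, or 0.556 per Mb (0.440 to 0.693). Chromosome 13 was lowest with 22, or 0.221 per Mb (0.138 to 0.334), and chromosome 15 next with 26, or 0.237 per Mb (0.155 to 0.347). The ratio of chromosome 12 to chromosome 13 was 4.86, with an interval of 2.89 to 8.43 that does not allow for picking the extremes. In the comparison class the densest chromosome had 3.15 times the density of the sparsest. Across the 20 chromosomes the densities of the classes had a Spearman rho of 0.91, given as a description, since both classes come from the same library and the same chromosome spans.

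Set against the number of peaks of 1 kb or more, the share of broad peaks varied little between chromosomes. It ran from 4.72% on chromosome 13 (interval 2.98 to 7.06%) and 4.73% on chromosome 20 (2.95 to 7.14%) to 7.14% on chromosome 7 (5.70 to 8.82%) and 8% on chromosome 12 (6.00 to 10.4%). On 19 of the 20 chromosomes the interval held the joint share of 5.99%. Chromosome 12 was the exception by a hair, its lower limit lying just above the joint share. The remaining 16 chromosomes lay between 5.26 and 6.83%. Broad peaks were no more common towards chromosome ends, where 21.9% of them (interval 19.3 to 24.7%) and 22.9% of the comparison class (22.2 to 23.6%) lay in the outer 10% of the span at each end. The median width of broad peaks by chromosome lay between 4610 bp on chromosome 6 and 5313 bp on chromosome 18.

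**Figure D2:**
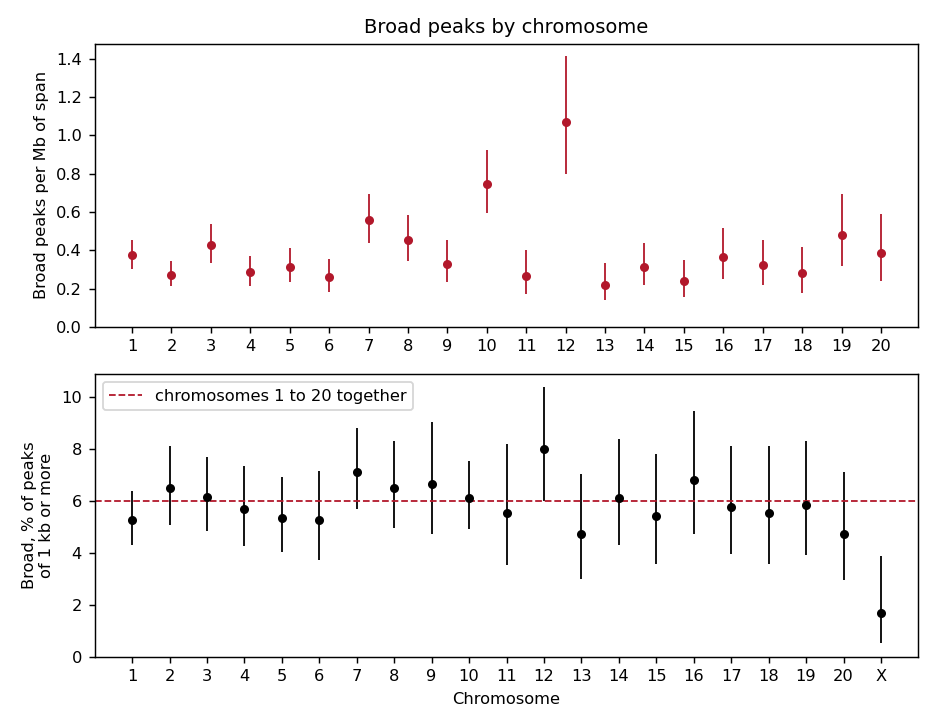
Top, broad peaks per Mb of span for chromosomes 1 to 20 with exact Poisson intervals, and bottom, broad peaks as a percent of peaks of 1 kb or more with Clopper-Pearson intervals, with X added and the joint share of 5.99% dashed. Density varies 4.86 times between chromosomes 12 and 13, while the intervals of the share hold the joint value on 19 of 20 chromosomes.

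Broad peaks as listed had flanking peaks more often than the comparison class. Another listed peak lay within 2 kb, edge to edge, of 601 broad peaks, a share of 64.2% with an interval of 61.0 to 67.3%. In the comparison class the share was 57.1%, with an interval of 56.3 to 57.9%. The difference of 7.07 percentage points had a Newcombe interval of 3.84 to 10.2, and broad peaks had the higher share on 16 of 20 chromosomes. With broad peaks defined from 3000 bp the difference was 2.06 points, with an interval of -0.13 to 4.23 that holds 0. With peaks up to 1 kb apart joined and both classes redrawn from the joined regions, it was 2.98 points (1.58 to 4.48). A flank on both sides was found at 192 broad peaks, or 20.5% (interval 18.0 to 23.2%), and at 11.9% of the comparison class (11.4 to 12.4%). If the sides were filled independently, the shares by side (44.0% left and 40.7% right) would give 17.9% flanked on both sides among broad peaks. The same product in the comparison class was 11.9%, equal to the share seen there to that precision. A left flank alone was present at 220 broad peaks and a right flank alone at 189.

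The classes differed mainly in how often all their flanks were weak. A peak at or above the median score of the list lay within 2 kb of 41.1% of broad peaks (interval 38.0 to 44.4%) and of 40.1% of the comparison class (39.3 to 40.9%). The difference of 1.02 percentage points had an interval of -2.19 to 4.30. Weaker flanks only were present at 23.1% of broad peaks (20.4 to 25.9%) and 17.0% of the comparison class (16.4 to 17.6%). When all peaks below the median score were dropped, the 3098 weak comparison peaks left along with the weak flanks. The flanked share was then 41.2% in 935 broad peaks and 42.0% in 11590 comparison peaks, a difference of -0.83 percentage points with an interval of -4.07 to 2.47.

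The share of flanked peaks did not rise evenly with width. It was 59.7% at 1 to under 1.5 kb, 56.9% at 1.5 to under 2 kb, 53.4% at 2 to under 3 kb and 55.9% at 3 to under 4 kb. Within the broad peaks it was 61.7% at 4 to under 5 kb, 67.7% at 5 to under 6 kb, 64.2% at 6 to under 8 kb and 74.5% at 8 kb or more, the last over 47 peaks with an interval of 59.7 to 86.1%. Intervals of neighbouring classes of broad peaks overlapped, so no order among them was resolved. The share flanked on both sides was higher in each wider class, from 10.1% at 1 to under 1.5 kb to 17.1% at 4 to under 5 kb and 27.7% at 8 kb or more (interval 15.6 to 42.6%).

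**Figure D3:**
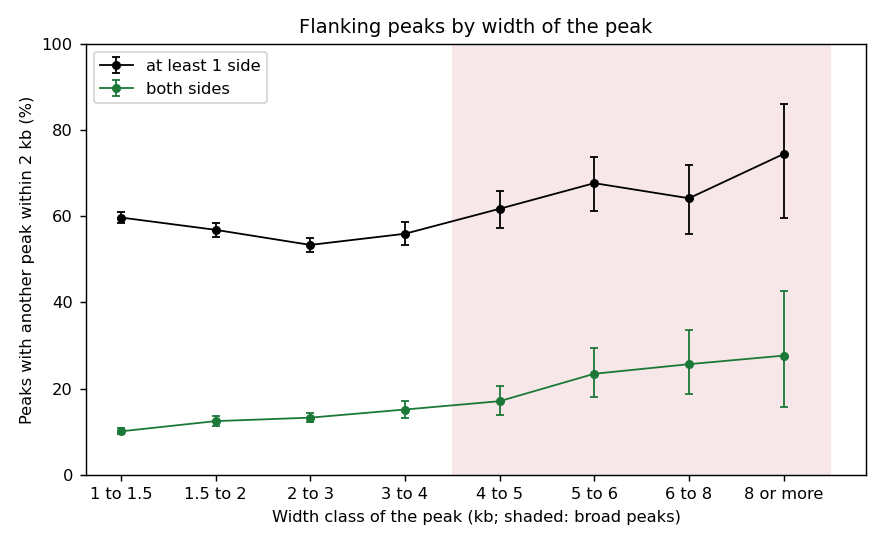
Share of peaks (%) with another listed peak within 2 kb on at least 1 side (black) and on both sides (green), by width class in kb, with Clopper-Pearson intervals and broad classes shaded. The black line dips to 53.4% at 2 to under 3 kb and stands at 74.5% in the widest class, and the green line runs from 10.1 to 27.7%.

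At similar scores the broad peaks had the higher flanked share in each of 6 score classes, with overlapping intervals in every one. From a score of 1500 to under 2000 the share was 62.6% in 179 broad peaks (interval 55.0 to 69.7%) and 53.7% in 915 comparison peaks (50.4 to 56.9%). From 1000 to under 1500 it was 60.9% against 57.2%, and from 2000 to under 2500 it was 58.6% against 52.5%, within counting error in both cases. At 2500 or more it was 68.6% in 373 broad peaks (63.7 to 73.3%) and 61.9% in 194 comparison peaks (54.6 to 68.7%). From 500 to under 1000 the shares were 64.0% and 63.8%. For both-sided flanks, the classes differed beyond their intervals only at scores under 500. There the share was 44.4% over only 9 broad peaks (interval 13.7 to 78.8%) and 9.58% in comparison peaks (8.90 to 10.3%). From a score of 500 up, no excess of both-sided flanks was resolved. The share was 10.0% in broad against 12.7% in comparison peaks from 500 to under 1000, 16.7 against 14.2% from 1000 to under 1500, 16.8 against 15.3% from 1500 to under 2000, 17.2 against 18.3% from 2000 to under 2500 and 26.3 against 24.7% at 2500 or more, with overlapping intervals each time. Broad peaks with more flanked sides also scored higher, with medians of 2098 for the 335 without a flank, 2170 for the 409 with 1 flanked side and 2516 for the 192 with both. Their median widths were 4788, 4833 and 5097 bp. In the comparison class the median score rose likewise, from 482.1 without a flank to 546.4 with 1 flanked side and 676.0 with both.

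The flanking peaks themselves were small and weak beside the broad peaks they accompanied, as the choice by width favours. Within 2 kb there were 793 nearest flanks, at a median gap of 267 bp (quartiles 104 and 589 bp). The gap was 260 bp in the comparison class (quartiles 105 and 596 bp), so the spacing was alike. Flanks of broad peaks had a median width of 1045 bp and a median score of 191.2. For flanks of comparison peaks these medians were 1094 bp and 272.8. Of the 793, 375 were narrower than 1 kb, 406 were from 1 kb to under 4 kb, and 12 were broad. A flank outscored its broad peak in 28 cases, or 3.53% (interval 2.36 to 5.06%), against 33.6% in the comparison class, a gap that the choice by width largely fixes. Peaks under 1 kb beside a broad peak had a median score of 95.9 (432 peaks). Those beside a comparison peak alone had 102.7 (4465 peaks) and those with no peak of 1 kb or more within 2 kb had 68.6 (9022 peaks). Peaks under 1 kb thus scored similarly beside broad and beside narrower peaks, and lower where they stood apart. Flanked peaks of 1 kb to under 4 kb did not score alike. Their median was 372.7 beside a broad peak (459 peaks) and 578.5 where no broad peak was beside them (7934 peaks). Scores under 100 made up 11.3% (interval 8.58 to 14.6%) and 6.43% (5.90 to 6.99%) of them.

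The crowding around broad peaks faded with distance. Within 0.5 kb of the edges there were 590 listed peaks per Mb of flank at broad peaks and 483 at comparison peaks. From 1 to 2 kb the values were 111 and 74.2, from 5 to 10 kb 49.4 and 39.3, and from 20 to 50 kb 34.8 and 33.7. The mean number of other peaks within 10 kb was 1.88 for broad and 1.47 for comparison peaks. No other peak lay within 10 kb of 203 broad peaks, or 21.7%, and of 29.4% of the comparison class. Peaks overlapping several of these zones were counted once, in the innermost.

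**Figure D4:**
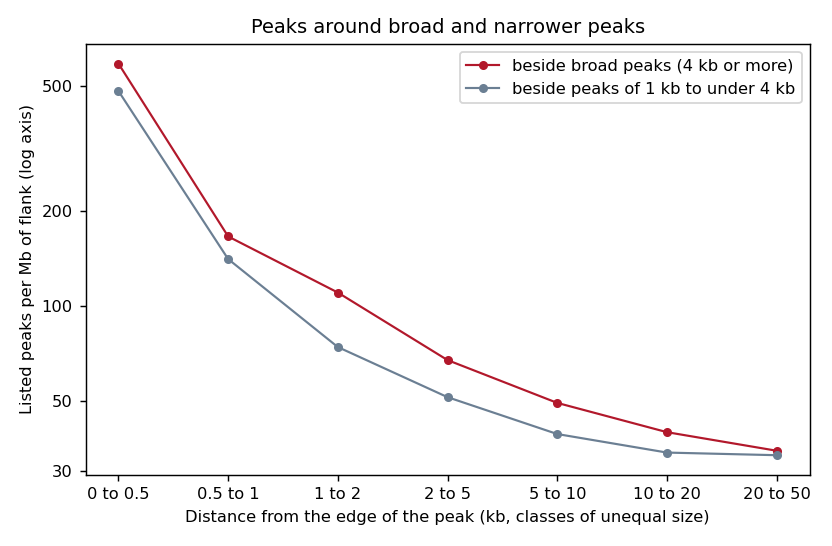
Listed peaks per Mb of flanking sequence (log axis) by distance in kb from the edge, beside broad peaks (red) and beside peaks of 1 kb to under 4 kb (grey). The red values run from 590 to 34.8 and the grey from 483 to 33.7, so the lines nearly meet in the last class.

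The most crowded broad peak lay on chromosome 5 from 118163963 to 118168425, 4463 bp wide, with 12 other peaks within 10 kb and a score of only 577.5. The second was on chromosome 19 from 10462665 to 10469310, 6646 bp wide, with 10 other peaks and a score of 3100. A further 3 had 9 others each. These lay on chromosome 7 from 10017392 to 10023154 (5763 bp, score 3100), chromosome 1 from 125282106 to 125286565 (4460 bp, score 2458) and chromosome 10 from 74085136 to 74089187 (4052 bp, score 2185). Scores of these 5 peaks thus ran from 577.5 to 3100, with only the most crowded of them below 2185. The comparison class also reached 12 other peaks within 10 kb.

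Joining peaks up to 1 kb apart placed the 936 broad peaks in 925 regions. Of these regions 391 were a single peak, 311 held 2 peaks and 223 held 3 or more, with 10 at most. The median width of regions of 2 or more peaks was 7229 bp, and the peaks filled a median of 95.1% of it. The choice by width favours a broad peak as the best-scoring peak of its region. The broad peak had the best score in its region in 511 of 545 cases, or 93.8%, against 58.2% for comparison peaks. In regions of 3 or more peaks it held an inner position in 140 of 233 cases, or 60.1% (interval 53.5 to 66.4%), against 47.1% for comparison peaks (45.2 to 48.9%). Larger regions have more inner positions, and region sizes were not matched between the classes. Comparison peaks that share a region with a broad peak are also counted, so the classes are not independent here. Joining also made 2614 regions of at least 4 kb, and 1689 of them, or 64.6%, contained no broad peak. These were stretches of at least 4 kb made up of narrower peaks alone.

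Broad peaks showed little tendency to lie near one another. The median distance from a broad peak to the nearest other broad peak was 404 kb (quartiles 126 and 1194 kb). Measured to the same broad peaks, comparison peaks had a median of 458 kb (quartiles 123 and 1407 kb), and the median of broad peaks was the shorter on 10 of 20 chromosomes. Another broad peak lay within 50 kb of 120 broad peaks, or 12.8% (interval 10.7 to 15.1%), and of 14.3% of comparison peaks (13.7 to 14.8%). The difference was -1.44 percentage points, with an interval of -3.51 to 0.92. With peaks up to 1 kb apart joined, the members became 2614 regions of at least 4 kb, 1689 of them without a broad peak. For these regions the difference turned to 1.54 points (-0.33 to 3.47). Both intervals hold 0, so neither direction was resolved. At shorter range, fewer broad peaks than comparison peaks, as listed, had a broad neighbour. Within 1 kb, the distance used for joining, the share was 1.07% (interval 0.513 to 1.96%) against 2.48% (2.23 to 2.74%). The part of the choice by width, and of stretches split into several peaks, in this was not tested. The share within 2 kb was 1.82% (1.06 to 2.89%) against 3.13% (2.85 to 3.42%), and the difference within 20 kb was -1.93 percentage points (-3.40 to -0.12). Nearness between broad peaks is mutual, so both peaks of a close pair are counted. The intervals treat peaks as independent and are likely too narrow. With an upper limit just below 0, the difference within 20 kb was not firmly resolved.

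The order of peaks along the chromosome gave the same picture. The next peak of at least 1 kb was broad after 48 of 936 broad peaks, or 5.13% (interval 3.81 to 6.74%), and after 6.05% of comparison peaks (5.67 to 6.45%). The difference of -0.92 percentage points had an interval of -2.22 to 0.73. Counting only peaks of at least 2000 bp as neighbours and as the comparison class, it was 1.34 points (-1.18 to 4.08), so its sign was not resolved either. Where the next such peak lay under 2 kb away, it was broad in 3.60% of cases after a broad peak (1.57 to 6.98%) and in 7.38% after a comparison peak (6.48 to 8.37%), with intervals that overlapped slightly. Among all listed peaks, 23 runs of 2 consecutive broad peaks occurred and 1 run of 3. The run of 3 lay on chromosome 5 and spanned 1616 kb, from 86268490 to 87884423. Its peaks were 5673, 4861 and 5291 bp wide, with scores of 1930, 1160 and 1713. Nothing else was listed in it. Among peaks of at least 1 kb there were 44 runs of 2 and 2 runs of 3. The other run of 3 was more compact, spanning 176 kb on chromosome 6 from 26171204 to 26347408, with peaks of 4371, 4391 and 5611 bp and scores of 2463, 1748 and 3100.

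**Figure D5:**
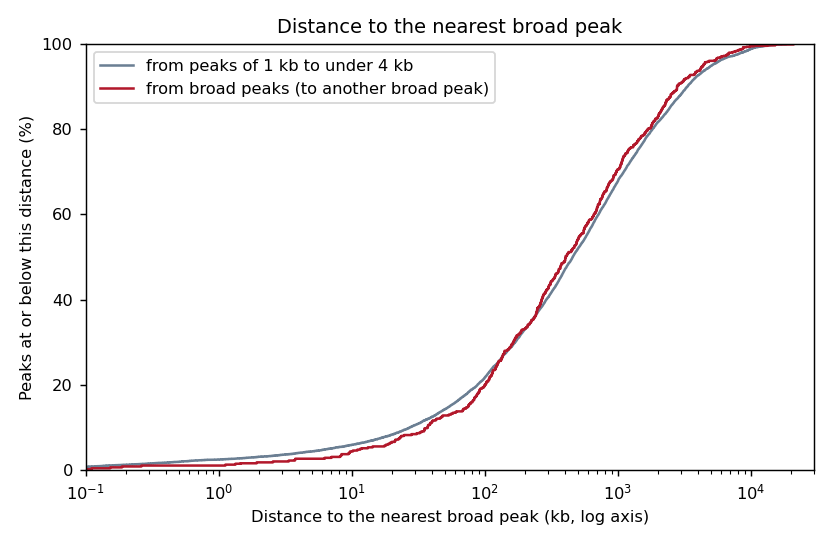
Cumulative share of peaks (%) by distance to the nearest broad peak (kb, log axis), from broad peaks to another broad peak (red) and from peaks of 1 kb to under 4 kb (grey). The red line lies below the grey at short distances, 1.82 against 3.13% at 2 kb, and the medians are 404 and 458 kb.

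Direct neighbours among broad peaks were few. The closest pair lay on chromosome 17, where peaks from 7364231 to 7374630 (10400 bp, score 3100) and from 7374642 to 7380174 (5533 bp, score 800.8) were 11 bp apart. The second pair, on chromosome 2 from 43116519 to 43120531 and from 43120643 to 43124774, had a gap of 111 bp and scores of 303.7 and 1212. The third was on chromosome 9, from 35492457 to 35496525 (score 634.5) and from 35496679 to 35502117 (score 3100), with a gap of 153 bp. In the fourth, on chromosome 7, peaks from 123665392 to 123672515 and from 123672704 to 123679255 both scored 3100 across a gap of 188 bp. The fifth, on chromosome 4, had a gap of 263 bp between peaks from 58266897 to 58271035 (score 1240) and from 58271299 to 58277406 (score 3001). Gaps in these 5 pairs thus ran from 11 to 263 bp.

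Some broad peaks stood far from any other. A distance above 1 Mb to the nearest broad peak was found for 276 of them, or 29.5%, and for 32.2% of comparison peaks, and a distance above 10 Mb for 5. The farthest was on chromosome 5 from 37272287 to 37277373, 5087 bp wide with a score of 1007, at 20959 kb. On chromosome 15 the peak from 105354655 to 105362514 was 15341 kb away and the peak from 90006244 to 90013890 (7647 bp, score 3100) 13267 kb away. A peak of 6687 bp on chromosome 4 from 2578794 to 2585480 was 15201 kb away, and one of 5785 bp on chromosome 14 from 57323306 to 57329090 was 10558 kb away, both with a score of 3100. Of these 5 peaks, 4 had a flanking peak of lesser width within 2 kb, so distance from broad peaks did not mean absence of other peaks.

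In windows of 1 Mb, broad peaks were as unevenly spread as narrower peaks once their number was allowed for. Of 2549 windows, 1890 held no broad peak, 475 held 1, 117 held 2, 45 held 3, 20 held 4 and 2 held more. The 67 windows with 3 or more contained 227 broad peaks, or 24.3%. The variance of the counts was 1.49 times their mean. The excess of this ratio over 1, divided by the mean count so that sparse and frequent classes can be set side by side, was 1.34 for broad and 1.35 for comparison peaks, and 0.73 and 0.69 in windows of 5 Mb. The fullest windows held 6 broad peaks each, on chromosome 12 from 33 to 34 Mb beside 29 comparison peaks and on chromosome 7 from 10 to 11 Mb beside 68. The first windows with 4 in chromosome order were on chromosome 1 from 83 to 84 Mb and from 211 to 212 Mb, each beside 25 comparison peaks, and on chromosome 2 from 179 to 180 Mb beside only 5. At the other end, and picked after its values were seen, the window on chromosome 16 from 19 to 20 Mb held 54 comparison peaks and 0 broad ones.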

How the data were processed

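The members, measures and comparison class were chosen with earlier results of these data known. Per the file headers, the authors used MACS to call H3K4me3 peaks with the input as control, and the build is rn4, per the submitters' processing notes. The MACS version was, like its settings and the aligner, not given in the sources used here. The score is the authors' deposited value per peak. The deposited start counts from 0 and was printed plus 1.

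Distances are edge to edge between listed peaks, computed in Python 3.11.15 (pandas 2.3.3, SciPy 1.17.1, NumPy 2.4.6; figures, matplotlib 3.10.9). The code was tested on simulated peaks with planted flanks. Regions named are the widest broad peak per chromosome, the 5 with the lowest score, most flanks within 10 kb, closest pairs or largest distances, the longest run and the 5 fullest windows. Alternatives were thresholds of 3 and 5 kb, a minimum score, joined peaks, X added, other distances and windows, and a comparison class from 2 kb. No genome sequence of rn4 was used here, so no peak sequence is shown.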

Additional observations from a re-analysis of the deposited data

Results flagged for a closer look

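Chromosome X lay outside the rule but held 5 broad peaks, above the 3 that a count of 0 allows. They were 4163 to 5285 bp wide, with scores from 934.5 to 1963, and none had the score of 3100. They made up 1.69% of the 296 peaks of at least 1 kb on X (Clopper-Pearson interval 0.551 to 3.90%), below the interval of 5.62 to 6.37% on chromosomes 1 to 20. Their density was 0.0317 per Mb (interval 0.0103 to 0.0739). The part of lower scores on X in this difference was not tested.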

How the results depend on the processing

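No paired analysis was possible because the study has a single ChIP library. Of 72 alternative values, 38 were counted as within the interval of the value given (or within 1.5 times for the number of broad peaks). Some of these could not change, so the count is no measure of stability. A comparison class from 2000 bp leaves the median score and flanked share of broad peaks as they were. With X added, the density ratio stayed at 4.86, although X, at 0.0317 per Mb, was sparser than the lowest chromosome in it (0.221). The variance over mean has no interval, and even 1.493 against 1.492 was counted as moved. When peaks below the median score were dropped from both classes and their flanks, the flanked-share difference reversed in sign, to -0.83 points. Its interval of -4.07 to 2.47 holds 0, so the opposite direction was not resolved. That setting gave a flanked share of 41.2%, 7.49% of neighbours broad and a window variance over mean of 1.49, barely moved. A threshold of 3000 bp gave 2289 peaks, a median score of 1695, 59.3% flanked, a difference of 2.06 points whose interval (-0.13 to 4.23) holds 0, 27.4% near another broad peak, 13.9% broad neighbours and a variance over mean of 2.31. At 5000 bp these were 421 peaks, a score of 2833, 6.41% near another, 1.90% broad neighbours and 1.26. Joined peaks gave 2614 regions, a score of 1448, 13.9% flanked (joining removes gaps up to 1 kb), a difference of 2.98 points, 27.6% near another, a difference in that share of 1.54 points, where the main sign is negative and both intervals hold 0, 18.8% broad neighbours and 2.59. Adding X gave a variance over mean of 1.51, and windows of 5 Mb gave 2.31. Flanks of 1 kb and 10 kb gave 58.2% and 78.3%, and distances of 20 and 100 kb gave 6.41% and 19.98%. A comparison class from 2000 bp gave 17.1% broad neighbours and a difference of 1.34 points. A pair of alternatives were chosen after seeing the data. Counting only flanks under 4 kb left 63.9% flanked and a difference of 8.63 points, and counting only flanks at or above the median score, with all members kept, left 41.1% and 1.02 points. Read numbers are not given, so peaks near the lowest score cannot be told from background.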
